A study of Homo sapiens with 8 samples.

Results

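Chromosome 6 held 359 of the 2412 HA-LSF peaks in the series, 260 in the mono-nucleosome list and 99 in the di-nucleosome list. They were taken as all rows on chromosome 6 of both deposited peak lists and were divided by position. The histone and tRNA gene region, from 26 to 29 Mb in hg19, was set against the rest of the chromosome, and a peak was assigned to the part that holds its midpoint. The region took up 3 Mb of the chromosome and held 166 of the 359 peaks, 110 of the mono-nucleosome and 56 of the di-nucleosome list. The rest of the chromosome held the other 193.

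The peaks came from ChIP-sequencing of a stable HEK293T line, a human embryonic kidney line, that carries HA-tagged LSF under a ligand-inducible promoter. All 8 libraries of the series come from this line, and both induced and uninduced cells therefore carry the transgene. The labels give the inducer as RSL1 for the induced and DMSO for the uninduced cells. The protocol text names 5 μM RSL1 for 24 h for every sample. Chromatin was cut with micrococcal nuclease, mono- and di-nucleosome sized DNA was separated, and libraries were made from HA-precipitated and input DNA. Both lists compare HA ChIP with input in induced cells, with 1 library per condition. No value below has a replicate, and no statistical test stands behind any difference. The 4 libraries of uninduced cells were not analysed here. The tag is on the protein of the transgene and not on the cell's own LSF. HA-LSF peaks here are peaks of the HA ChIP over input in induced cells. They were not compared with the HA ChIP of uninduced cells, so whether a peak depends on induction was not tested. Read counts were not among the data analysed, and the depth of each library is unknown.

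LSF, the product of TFCP2, is a DNA-binding transcription factor. Histone genes encode the core histones, around which DNA is wrapped, and the linker histone H1, and most of their expression falls in S phase. They are transcribed by RNA polymerase II. tRNA genes are short, carry their promoter elements inside the gene and are transcribed by RNA polymerase III. Both families exist in many copies of similar sequence, and short reads can be assigned ambiguously where copies match. The handling of such reads is not given in the sources used here. In the RefSeq gene table of GRCh38.p14 chromosome 6 had 67 of the 130 genes and pseudogenes with a histone symbol and 149 of the 423 with a tRNA symbol. Along the order of genes on the chromosome the histone genes formed 3 blocks, with fewer than 10 other genes between neighbours. Pseudogenes are included in these and the following numbers. The first block, from H2AC1 to H3C9P, had 44 histone and 8 tRNA genes. Between the first and the second block lay 34 tRNA genes and 8 genes or pseudogenes of the butyrophilins, membrane proteins of the immunoglobulin superfamily. The second block had 5 histone genes, and 51 tRNA genes followed it. The third block had 18 histone genes, and the stretch behind it had 46 tRNA genes among 19 zinc finger and 9 olfactory receptor genes. This order comes from another build than the peaks. No gene was placed against a peak, and the name of the region rests on the known location of these families and not on the lists.

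Peaks were dense in the region and sparse elsewhere on the chromosome. The mono-nucleosome list had 36.7 peaks per Mb in the region and 0.892 per Mb in the rest of chromosome 6, a ratio of 41.1. The di-nucleosome list had 18.7 and 0.256 peaks per Mb, a ratio of 73.0. On the other chromosomes the densities were 0.601 and 0.115 peaks per Mb. The region held 42.3% of the mono-nucleosome and 56.6% of the di-nucleosome peaks of the chromosome. Of all peaks in the lists it held 5.55% (95% Wilson interval 4.62% to 6.64%) and 13.1% (10.2% to 16.6%). These and the later intervals cover counting error only and treat peaks as independent, which neighbouring peaks are not. The lists were also closer in number here: there were 1.96 mono-nucleosome peaks for each di-nucleosome peak in the region, 3.49 in the rest of chromosome 6 and 5.24 on the other chromosomes.

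**Figure D1:**
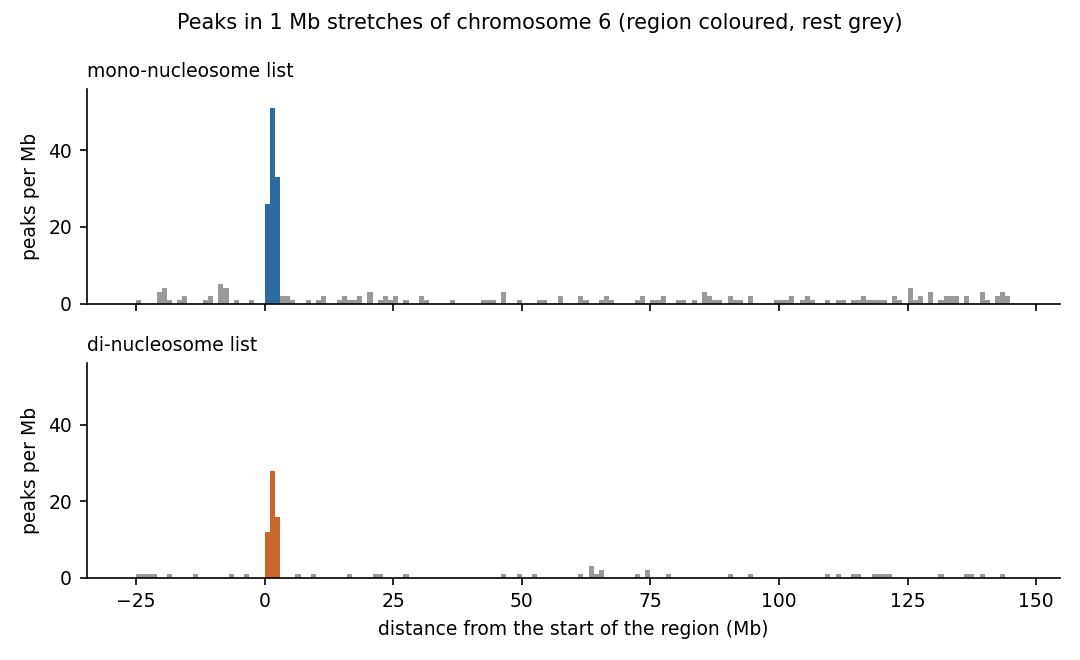
Peaks in each 1 Mb stretch of chromosome 6 (vertical axis, peaks per Mb), by distance from the start of the region in Mb (horizontal axis), for the mono-nucleosome list (top) and the di-nucleosome list (bottom); coloured bars are the 3 stretches of the region and grey bars the rest. The 3 coloured bars reach 26 to 51 and 12 to 28 peaks, and no grey bar is above 5 or 3.

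Few peaks lay on either side of the region. In the 2 Mb before the region there was no peak of either list, and the nearest peak on that side lay 2516 kb from the border. In the 2 Mb after it there were 4 mono-nucleosome peaks and 0 di-nucleosome peaks, the nearest 358 kb from the border. Of the 169 other 1 Mb stretches of the chromosome, 75 had no mono-nucleosome and 130 no di-nucleosome peak, and none had more than 5 or 3. Among 3 Mb windows placed at 1 Mb steps along all chromosomes with peaks and not overlapping the region, the highest counts were 21 mono-nucleosome peaks, on chromosomes 1 and 17, and 12 di-nucleosome peaks, on chromosome 17. The region itself had 110 and 56. On chromosome 6 outside the region such a window had at most 9 and 6.

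Within the region the peaks stood in groups parted by long empty stretches. Over both lists, peaks separated by up to 20 kb were counted as 1 run. A mono-nucleosome and a di-nucleosome peak that overlap thus count as 2 peaks of a run. The region had 13 runs with 159 of its 166 peaks, and 11 of the 13 runs contained both lists. The 9 runs with at least 10 peaks held 150 peaks, 90.4% of those in the region, on 595 kb or 19.8% of its length. Conversely, 8 stretches of at least 100 kb with no peak of either list took up 60.8% of the region. The longest ran from 26758711 to 27144315, over 386 kb. The next ran from 28184600 to 28564783, over 380 kb, and from 27870834 to 28183753, over 313 kb. The rest of chromosome 6 had 9 runs with 19 peaks in all. The largest of these, from 17975117 to 17992890, had 3 mono-nucleosome peaks with scores of at most 64.2, and the other 8 runs had 2 peaks each.

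**Figure D2:**
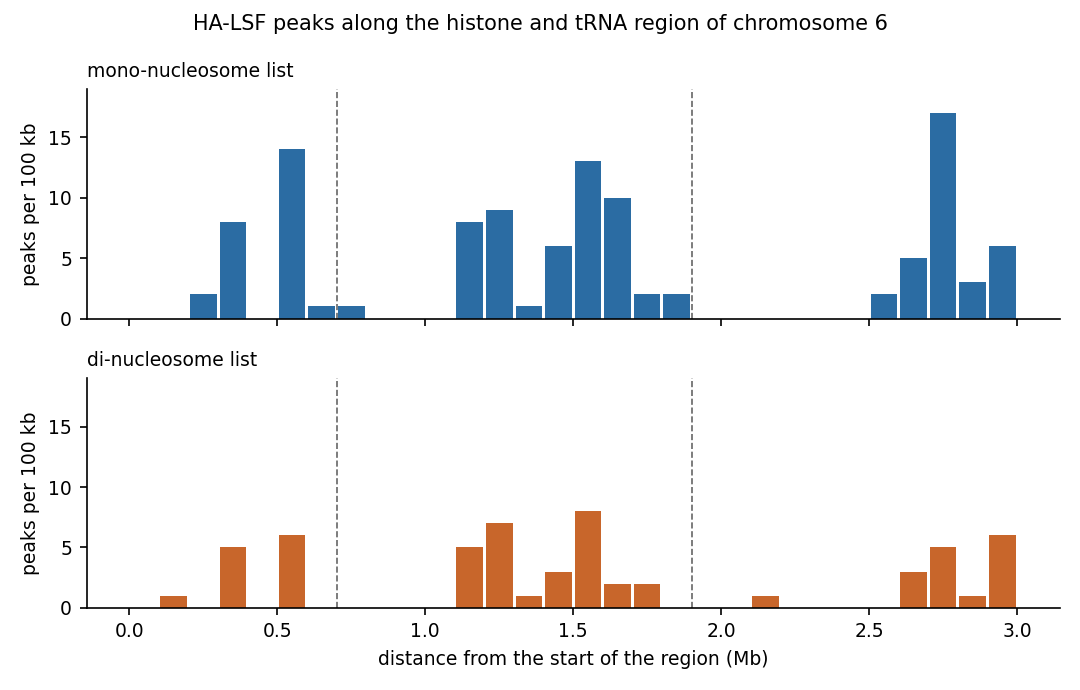
Peaks in each 100 kb of the region (vertical axis), by distance from its start in Mb (horizontal axis), for the mono-nucleosome list (top) and the di-nucleosome list (bottom); dashed lines mark the borders of the 3 sub-regions. Of the 30 stretches 10 have no peak of either list, and 8 hold 129 of the 166 peaks.

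The run with the most peaks lay in the third sub-region, from 28677151 to 28806256. It had 22 mono-nucleosome and 9 di-nucleosome peaks on 129 kb, with highest scores of 313 and 331. The second, from 26507006 to 26613517, had 15 and 6 peaks on 107 kb, with highest scores of 541 and 239. Both runs of 17 peaks lay in the second sub-region. One, from 27144315 to 27205853, had 10 mono-nucleosome and 7 di-nucleosome peaks, and the other, from 27446127 to 27527008, had 11 and 6. Runs of 15 peaks, 10 and 5, lay from 26286202 to 26332484 and from 27551090 to 27612794. Peaks of either list covered 65.1% of the first of these, whereas the coverage of the other 5 runs named here was between 21.3% and 27.7%.

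The run from 26286202 to 26332484 was the most continuous of these. Its 5 di-nucleosome peaks followed one another with gaps of 39 to 308 bp. Their scores were 133, 325, 197, 103 and 147 in order of position, and their widths were 4718, 5866, 10058, 4469 and 3004 bp. The 10 mono-nucleosome peaks had scores of 60.8, 66.4, 105, 589, 60.8, 53.1, 78.8, 282, 97.0 and 392. Peaks over 100 thus stood next to peaks near the lowest score, and the first 2 mono-nucleosome peaks lay before the first di-nucleosome peak. The other 8 mono-nucleosome peaks each shared bases with a di-nucleosome peak, and all 5 di-nucleosome peaks shared bases with a mono-nucleosome peak.

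The 3 sub-regions had different layouts. The first, from 26 to 26.7 Mb, had 25 mono-nucleosome and 12 di-nucleosome peaks, or 35.7 and 17.1 per Mb. It was almost empty at its start: 1 di-nucleosome peak, from 26101793 to 26103141 with a score of 55.9, lay before the first mono-nucleosome peak at 26286202. From there on the peaks lay in 2 runs, the one from 26286202 to 26332484 and the one from 26507006 to 26613517. The second, from 26.7 to 27.9 Mb, had 52 and 28 peaks, or 43.3 and 23.3 per Mb, the highest density of the 3 in both lists. It held 47.3% of the mono-nucleosome and 50.0% of the di-nucleosome peaks of the region. The third, from 27.9 to 29 Mb, had 33 and 16 peaks, or 30 and 14.5 per Mb. It too began with a long sparse stretch, in which 1 di-nucleosome peak, from 28183753 to 28184600 with a score of 57.8, lay between 27870834 and 28564783.

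Neighbouring peaks of a list were close in the region. The median distance to the nearest peak of the same list, edge to edge, was 1.27 kb in the mono-nucleosome list (quartiles 386 and 5042 bp) and 2000.5 bp in the di-nucleosome list (513 and 6882 bp). In the rest of chromosome 6 the medians were 378 kb and 1454 kb. With peaks under 1 kb apart merged the medians of the region were 3461 and 6058 bp, and with scores from the median of each list upwards they were 1700 and 3393 bp. Of the mono-nucleosome peaks of the region, 104 of 110, or 94.5% (88.6% to 97.5%), lay within 20 kb of a neighbour in their list, against 13.8% of the list over all chromosomes and 11 of 150 in the rest of chromosome 6. Of the di-nucleosome peaks 48 of 56, or 85.7% (74.3% to 92.6%), did, against 22.0% of the list and 0 of 43 in the rest of the chromosome. The largest runs within 1 list had 21 mono-nucleosome and 6 di-nucleosome peaks. By score, 94.1% of the 34 mono-nucleosome peaks of the region under 60 were in runs, and 96.7% of the 30 over 100. On the other chromosomes these shares were 5.62% of 1192 and 84.0% of 50 peaks.

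**Figure D3:**
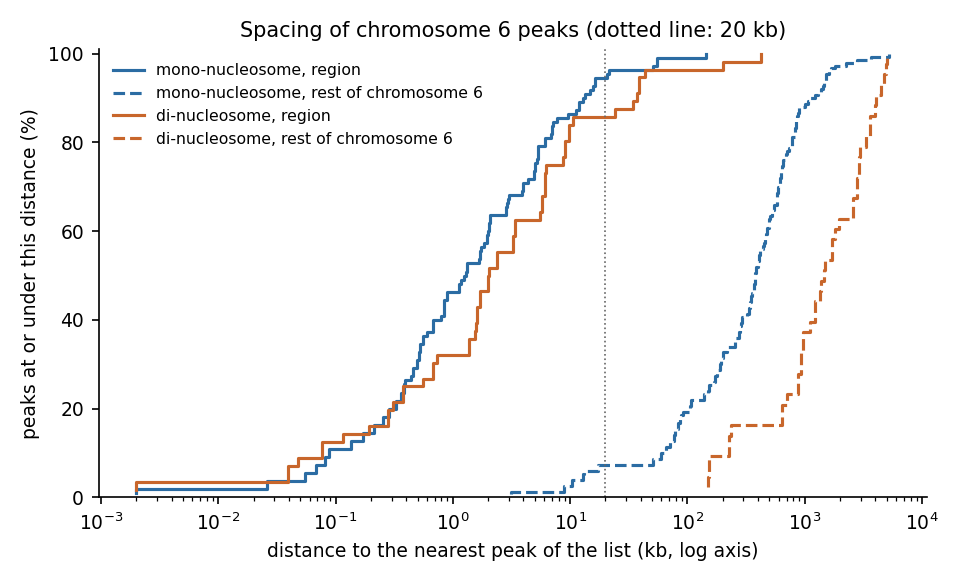
Share of chromosome 6 peaks (vertical axis, percent) whose nearest peak of the same list lies at or under a given edge-to-edge distance (horizontal axis, kb, log scale), for each list in the region (solid) and the rest of the chromosome (dashed); the dotted line is 20 kb. The solid lines have medians of 1.27 kb and 2000.5 bp and the dashed lines of 378 and 1454 kb.

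The score is the number the peak caller gave each peak, with a lowest value of 50.0 in either list, and is used here only to rank peaks within a list. Peaks of the region ranked high. Their median score was 70.2 in the mono-nucleosome list (quartiles 58.2 and 107) and 74.9 in the di-nucleosome list (58.9 and 109), against 55.6 and 52.8 in the rest of chromosome 6. Scores over 100 were reached by 30 of 110 and 20 of 56 peaks of the region, against 4.03% and 9.58% of the lists over all chromosomes. None of the other 193 peaks of chromosome 6 scored over 100. The highest among them were a mono-nucleosome peak from 116967559 to 116968201 with a score of 92.0 and a di-nucleosome peak from 116641511 to 116643157 with 85.8. Of the 50 highest-scoring peaks of each list, the region held 21 in the mono-nucleosome and 23 in the di-nucleosome list.

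The 5 top-scoring mono-nucleosome peaks of the region lay in the first and the third sub-region. The highest, 589, belonged to the peak from 26310888 to 26314638, the fourth in the list. It was followed by 541 from 26536691 to 26539728, 411 from 26552848 to 26556140, 411 from 28910861 to 28913133 and 392 from 26327513 to 26332442. In the second sub-region the highest mono-nucleosome score was 241. In the di-nucleosome list the highest scores were 331 from 28756997 to 28762246, 325 from 26308741 to 26314606, 239 from 26570094 to 26576261, 206 from 27558842 to 27562145 and 197 from 26314800 to 26324857. The sub-region with the most peaks was thus not the one with the highest scores. Scores over 100 were reached by 8 of 25, 18 of 52 and 4 of 33 mono-nucleosome peaks of the first, the second and the third sub-region, and by 7 of 12, 8 of 28 and 5 of 16 di-nucleosome peaks.

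The peaks of the region were also wide. The median width was 800 bp in the mono-nucleosome list (quartiles 604 and 1038 bp) and 1818 bp in the di-nucleosome list (1372 and 2534 bp), against 576 and 1180 bp in the rest of chromosome 6. The widest were 4930 and 10058 bp, both in the run from 26286202 to 26332484. The widest in the rest of the chromosome were 1108 and 2396 bp, and on the other chromosomes 5619 and 13480 bp. Median widths were 986, 718 and 803 bp for the mono-nucleosome peaks of the first, the second and the third sub-region and 2839, 1780 and 1830 bp for the di-nucleosome peaks. Peaks covered 3.68% and 4.29% of the bases of the region, compared with 0.0543% and 0.0344% of the rest of the chromosome.

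Width and score went together within a list. Spearman's rho between them was 0.83 over the 110 mono-nucleosome peaks and 0.81 over the 56 di-nucleosome peaks of the region, and 0.32 over 150 and 0.29 over 43 peaks of the rest. These are descriptions across peaks that share a library, and scores in the rest span a narrower range. Among peaks scoring under 60 the median widths of mono-nucleosome peaks were 548 bp in the region, 555 bp in the rest of chromosome 6 and 535 bp on the other chromosomes. Between 60 and 100 they were 824, 634 and 616 bp. For di-nucleosome peaks under 60 they were 1349, 1171 and 1182 bp, and between 60 and 100 they were 1714, 1695 and 1485 bp. Over 100, where the rest of chromosome 6 had no peak, the medians of the region and the other chromosomes were 1341 and 1416 bp in the mono-nucleosome and 2826 and 2950 bp in the di-nucleosome list.

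**Figure D4:**
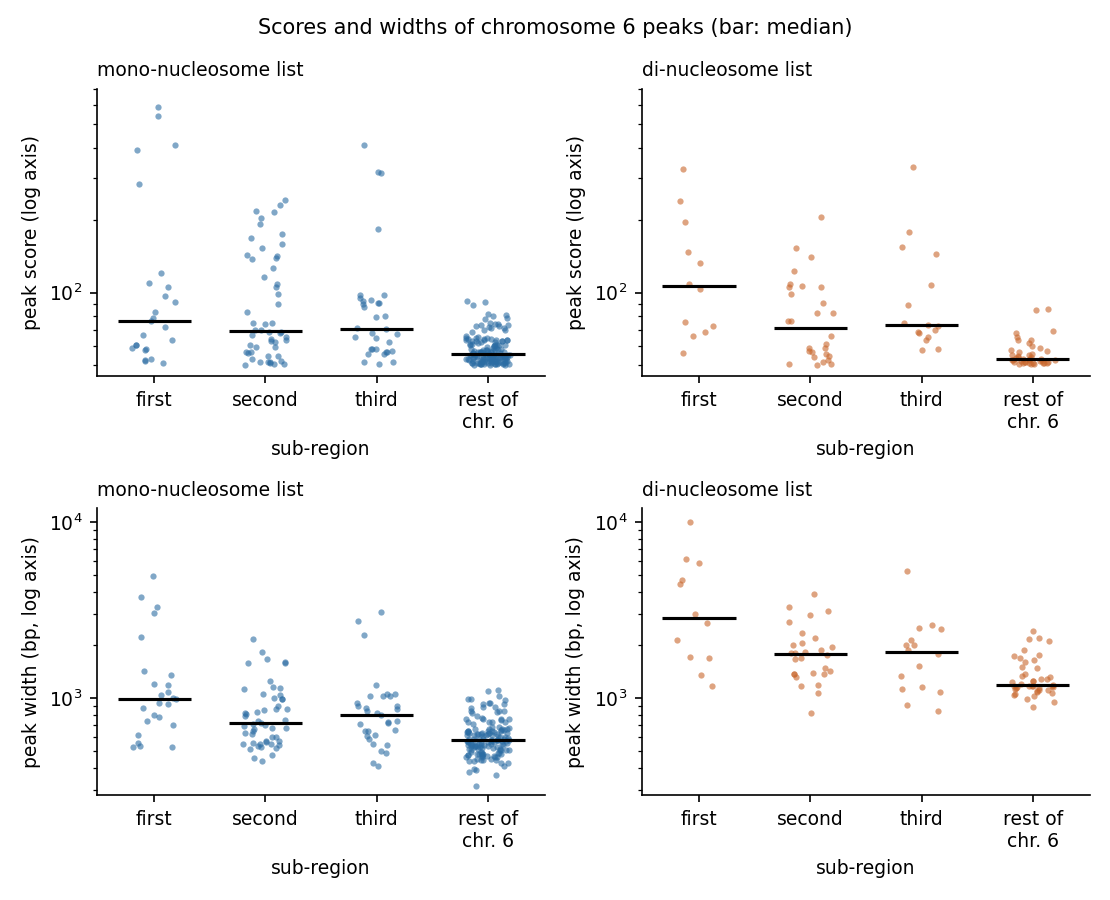
Scores (top, log axis) and widths in bp (bottom, log axis) of all 359 chromosome 6 peaks, 1 point each, in the 3 sub-regions and the rest of the chromosome, for the mono-nucleosome (left) and di-nucleosome list (right); black bars are medians. The rest of the chromosome has no point above a score of 100, and the first sub-region has the highest medians in all 4 panels.

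The lists overlapped in the region and not elsewhere on the chromosome. Of the di-nucleosome peaks 35 of 56, or 62.5% (49.4% to 74.0%), shared at least 1 bp with a mono-nucleosome peak, against 16.8% of the list over all chromosomes. Of the mono-nucleosome peaks 47 of 110, or 42.7% (33.9% to 52.1%), shared bases with a di-nucleosome peak, against 5.24% of the list. In the rest of chromosome 6, 0 of 43 di-nucleosome peaks overlapped, which allows a share of up to 6.98%, and 0 of 150 mono-nucleosome peaks did, which allows up to 2% (limits of 3 counts; the upper Wilson bounds are 8.20% and 2.50%). By sub-region the overlapping di-nucleosome peaks were 9 of 12, 17 of 28 and 9 of 16, and the mono-nucleosome peaks 15 of 25, 20 of 52 and 12 of 33.

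Overlap was also compared by score range between the region and the other chromosomes, in each list separately. Of the mono-nucleosome peaks under 60, 29.4% (16.8% to 46.2%) overlapped in the region and 0.755% (0.398% to 1.43%) on the other chromosomes. Between 60 and 100 the shares were 34.8% (22.7% to 49.2%) and 3.12% (1.90% to 5.08%). Over 100 they were 70.0% (52.1% to 83.3%) of 30 peaks and 66.0% (52.2% to 77.6%) of 50 peaks. Of the di-nucleosome peaks under 60, 60% (35.7% to 80.2%) of 15 overlapped in the region and 4.13% (2.19% to 7.66%) of 218 on the other chromosomes. Between 60 and 100 the shares were 42.9% (24.5% to 63.5%) and 10% (5.35% to 17.9%). Over 100 they were 85.0% (64.0% to 94.8%) of 20 peaks and 90.5% (71.1% to 97.3%) of 21 peaks. The region thus had the higher shares in both lists under 60 and between 60 and 100. Over 100 the shares were 21 of 30 against 33 of 50 mono-nucleosome peaks and 17 of 20 against 19 of 21 di-nucleosome peaks. No direction is read from these few peaks. The intervals treat neighbouring peaks as independent, so they do not measure these differences. Over all scores, peak density was 36.7 and 18.7 per Mb in the region and 0.601 and 0.115 per Mb on the other chromosomes. Median widths also differed within a score range, as given above. The part of density and width in the shares was not tested.

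**Figure D5:**
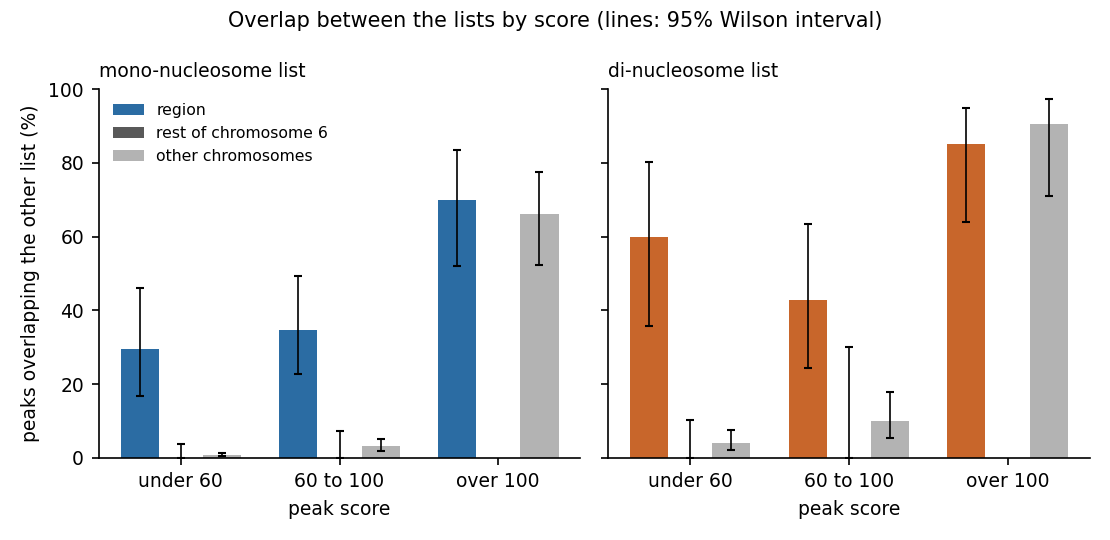
Share of peaks with at least 1 bp in common with the other list (vertical axis, percent), by score (horizontal axis), in the region, the rest of chromosome 6 and the other chromosomes, for the mono-nucleosome (left) and di-nucleosome list (right); lines are 95% Wilson intervals. The region is at 29.4% and 60% under a score of 60, and the rest of chromosome 6 is at 0 and has no peak over 100.

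Of the 35 overlapping di-nucleosome peaks, 23 met 1 mono-nucleosome peak, 9 met 2 and 3 met at least 3, with at most 4. Mono-nucleosome peaks covered a median of 53.0% of the width of these di-nucleosome peaks. The midpoints of a di-nucleosome peak and of the highest-scoring mono-nucleosome peak on it lay 498 bp apart at the median (range 10.5 to 3371 bp), and in 16 of 35 cases that mono-nucleosome peak lay wholly within the di-nucleosome peak. Between the scores of both peaks of a pair Spearman's rho was 0.07, a description over 35 pairs from the same 2 lists. A mono-nucleosome peak that scored highest on 2 di-nucleosome peaks, such as the one from 26327513 to 26332442, counts in both pairs. The same holds for the midpoint distances. The di-nucleosome peak from 26570094 to 26576261, with a score of 239, met 4 mono-nucleosome peaks with scores of 50.9, 52.0, 59.1 and 91.3. Conversely, the mono-nucleosome peak with 411 from 26552848 to 26556140 met a di-nucleosome peak with 66.1.

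Peaks without a partner had the lower median score in both lists. In the mono-nucleosome list the 63 peaks of the region without overlap had a median score of 64.1 and the 47 with it 97.0. In the di-nucleosome list the medians were 68.3 for 21 and 98.2 for 35 peaks. The mono-nucleosome peak with the second-highest score in the region, 541, overlapped no di-nucleosome peak. Of the 21 di-nucleosome peaks without overlap 14 had a mono-nucleosome peak within 5 kb, and the highest of the 21, from 27257946 to 27260283, had a score of 140.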

How the data were processed

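The authors called peaks on HA ChIP over input of induced cells, and the peak names are those of MACS. The submitters' processing notes name CASAVA 1.4, BWA and hg19; filters and caller settings are not given in the sources used here. The deposited score column was used as a rank within a list and to divide peaks at fixed limits. Starts were converted to count from 1. The 1 row of the series that ends past its chromosome in hg19 (lengths from GenomeInfoDb 1.38.1) is not on chromosome 6 and was left out, leaving 2411 peaks. The length of the rest of the chromosome includes its unsequenced bases.

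Overlap required 1 bp, and runs joined peaks up to 20 kb apart. Both steps were tested on simulated data with known answers. Shares have 95% Wilson intervals. The score limits of 60 and 100 were chosen after the data were seen, and members and lists were chosen with earlier results of these data known. Peaks named are the 5 highest-scoring and the widest of each list in the region, the highest of the rest, the 5 runs with most peaks in the region (6 where 2 tied) and the largest in the rest; other peaks named were chosen after their values were seen. Among the gene lists fixed by symbol, HLA and TRIM had 45 and 11 genes and pseudogenes on chromosome 6, 24 and 10 of them not pseudogenes. Genes and motifs at peaks were not analysed here, since the gene table is of GRCh38.p14. Alternatives were a score minimum, other gaps, overlaps and borders, and merged peaks. Python 3.11.15, pandas 2.3.3, scipy 1.17.1 and matplotlib 3.10.9 were used.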

Additional observations from a re-analysis of the deposited data

How the results depend on the processing

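Of 32 alternative values 19 stayed within the 95% interval of the value reported, and 13 did not. With each list limited to scores from its median upwards, the region held 54.9% of the mono-nucleosome and 79.3% of the di-nucleosome peaks of chromosome 6. With peaks under 1 kb apart merged, it held 35.3% of the mono-nucleosome peaks, their median width was 959 bp, and the median distances were 3461 and 6058 bp in the mono- and di-nucleosome list. With a gap of 5 kb, 73.6% and 62.5% of the peaks of the region were in runs, and with 50 kb 96.4% of the di-nucleosome peaks were. With 50% of the di-nucleosome peak covered, overlap was 29.1% of the mono-nucleosome and 39.3% of the di-nucleosome peaks, and with peaks within 1 kb counted it was 55.5% and 75%. Some directions were fixed by the setting. A shorter gap or a stricter overlap can only lower a share, and a longer gap or a looser overlap can only raise it. Merging takes out every distance under 1 kb, so the median distance cannot fall. The causes of the other changes were not tested. In the rest of chromosome 6, 0 of 150 mono-nucleosome and 0 of 43 di-nucleosome peaks lay within 1 kb of a peak of the other list.

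No paired analysis was possible because there is 1 library for each condition. The depth is unknown, so a stretch without a peak cannot be told apart from one with too few reads. The alternatives for genes and motifs were not run. Whether the peaks lie on histone or tRNA genes was not tested.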
